A study of Oryza sativa with 24 samples.

Results

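The small RNAs described here are the bright spot sets of a rice array whose mean level under osmotic stress stayed close to the untreated level. Rice (Oryza sativa) seedlings were kept in Yoshida's nutrient solution and exposed to 15% PEG6000 for 0, 0.5, 2, 6, 24 or 48 h; all groups share this origin, and the 0 h group is the untreated state. Small RNAs of each time point were made into 2 libraries, which were amplified with a Cy5 primer and hybridized to 2 spotted arrays each, so 24 arrays cover 12 libraries. Libraries served as replicates, with n = 2 at each time. Whether they came from separate plants is not stated in the labels, so p-values measure the spread between these libraries, which may be technical. None of the 24 arrays is of seedlings kept without PEG beyond 0 h. Hours of PEG therefore run together with seedling age and with the time of day. An effect of either was not tested. Each array held spots in sets of 4, under 223 probe codes of which R105 has 2 sets. To choose the members, intensities were put on the scale log2(intensity + 50) and quantile normalized over the 24 arrays, and spots, hybridizations and libraries were averaged. The score of a set was the mean of its 5 PEG time means minus its 0 h mean. The 40 highest and the 40 lowest scores were dropped, and of the 144 sets left the 40 with the highest 0 h mean were taken, so the members are 40 sets, or 17.9% of all sets on the array.

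Plant microRNAs are short RNAs cut from hairpin precursors by a Dicer-like enzyme and loaded into Argonaute proteins, where they guide the cleavage or the translational repression of matching transcripts. In seedlings the abundant families mostly act on transcription factors of growth and development, and others respond to water deficit. PEG is a polymer that lowers the water potential of the solution and so exposes the roots to osmotic stress. The deposited files give probe codes and do not pair them with microRNA names, so members are called by code and no role or sequence is given for them.

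Raw intensities of the arrays had medians from 152 to 566, and the 5th percentile of a whole array lay between 11.3 and 194. The raw mean of a member's 4 spots was at least 3.52 times the 5th percentile of its array on every one of the 24 arrays. That percentile is not a detection limit, and detection was not judged. The lowest raw mean of a member on an array was 296, within the range of the array medians. The members had 0 h means from 15.88 down to 9.68 on the log2 scale. Their median raw intensities over the arrays ran from 62207 to 675. All 40 carry codes with the letter R. None of the 14 sets with the letter N is a member, and the brightest N set ranked 80 at 0 h.

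The scores of the members ran from -0.25 to 0.14, with 18 above 0 and 22 below, while the scores of all sets ran from -2.36 to 3.79. The score and the 0 h level chose the members and are given as a description. R31 and R108 lay just inside the 0 h limit with 9.72 and 9.68, and R243 and R213 just outside it with 9.65 and 9.62. At the upper limit R48 had a score of 0.14 and R49, the first set dropped, had 0.17. At the lower limit the scores of R58 (member) and R238 (dropped) were both -0.25, so the limit cuts through a continuous range.

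At 0 h the members formed a steep upper end and a flat lower one. R43, R38 and R40 had means of 15.88 ± 0.11, 15.84 ± 0.03 and 15.74 ± 0.07 (SD, n = 2), and all 3 had spots at the ceiling. R19 and R36 followed with 15.38 ± 0.22 and 15.37 ± 0.02, and R48 with 14.88 ± 0.12. R21, named like R42 after its values were seen, stood alone at 14.08 ± 0.20. From R42 (13.28 ± 0.44) down to R108 (9.68 ± 0.26) the steps between neighbours were mostly smaller than the spread between libraries, which reached 0.87 in R218, so their exact order is not resolved. These are levels of different probes, and a probe's brightness also depends on its sequence and labelling, so they do not rank the RNAs by abundance.

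The order of the members by level was kept over the treatment. Across the 40 members, Spearman's rho between time means lay between 0.917 and 0.989 over the 15 pairs of times, and between single libraries it had a median of 0.943 (0.848 to 0.989 over 66 pairs). These are correlations across sets measured on the same arrays and are given as a description. Of the 10 brightest members at any one time, 8 were among the 10 brightest at all 6 times. R38 ranked between 1 and 4 among all sets on every array, R43 between 1 and 7, and R40 between 1 and 14. At the dim end R108 had ranks from 69 to 102 and R277 from 59 to 95. The median member moved over 17 ranks between its best and its worst array, against 40 ranks for all sets; ranks are less crowded among bright sets, so the spans are not like for like.

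**Figure D1:**
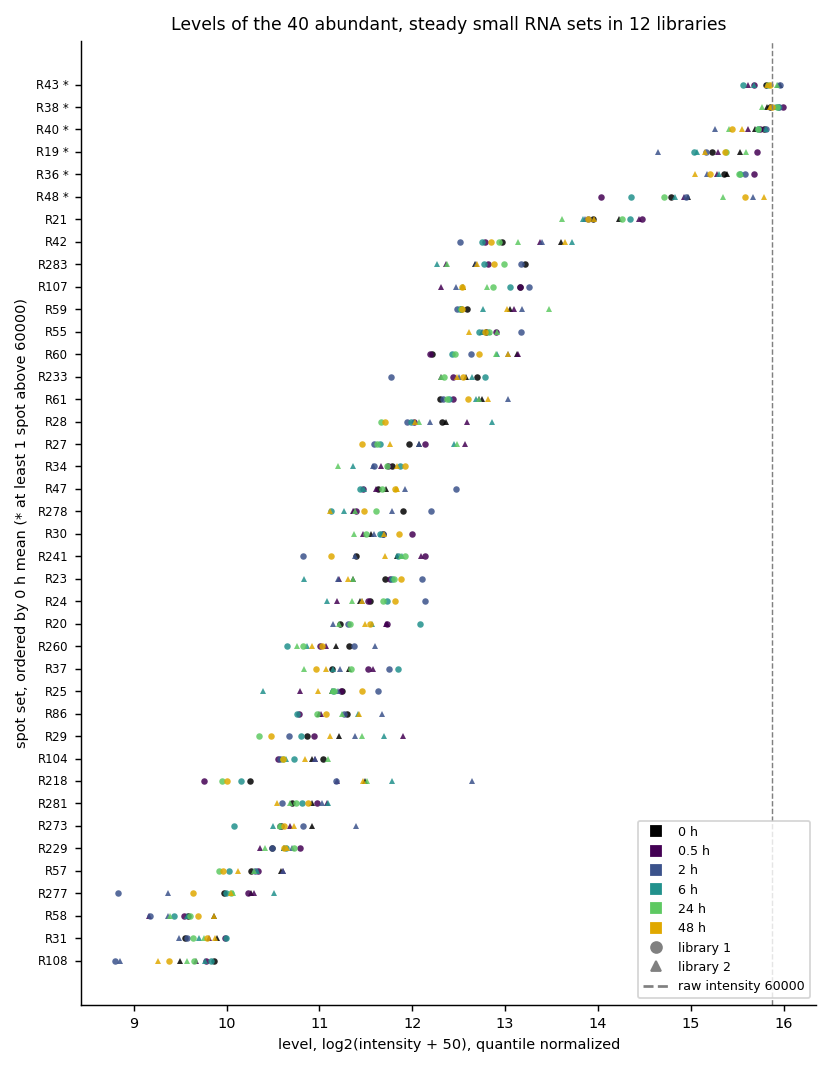
Level of each of the 40 sets (rows, ordered by 0 h mean) in the 12 libraries, on the scale log2(intensity + 50) after quantile normalization. Colour gives the time point, circles are library 1 and triangles library 2, and stars mark the 6 members with a spot above a raw intensity of 60000. The dashed line marks log2(60000 + 50) before quantile normalization, so the levels plotted do not show which spots exceeded 60000. R43 and R38 lie near the line, at 15.56 to 15.96 and 15.77 to 15.99. R218 has its library 2 values to the right of those of library 1.

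The brightest members were measured at or near the scanner's ceiling, 65535. Of 319 spots above 60000 on the 24 arrays, 194 belonged to 6 members: R43, R38, R40, R19, R36 and R48. Of the members' spots 87 were at 65535 itself, among them 41 of R38, 19 of R40 and 15 of R43. The other 34 members had 0 such spots. R38 had 12, 15, 8, 14, 9 and 11 of its 16 spots above 60000 at 0, 0.5, 2, 6, 24 and 48 h, with at least 1 on every array. R43 had 14, 5, 10, 6, 10 and 7 such spots in the same order. R40 had 7, 9, 3, 9, 3 and 4. A level that includes spots at the ceiling is a lower bound. Differences between times in these sets are therefore those of the recorded values, and no fold is given. R38, for example, had raw means of 61835 and 59560 in the 0 h libraries and of 65535 and 64397 in those of 0.5 h, at which the array could not have recorded a further rise. R36 and R19 were partly below the ceiling, with 15 and 11 of 96 spots above 60000. R48 reached the ceiling late, with 6 spots at 65535 at 48 h and 0 at every other time. It had 0 spots above 60000 at 0, 0.5, 6 and 24 h, 3 at 2 h and 9 of 16 at 48 h. Its raw array means went from 20228 to 43083 at 0 h and from 38693 to 65535 at 48 h.

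The 40 members held 41.1% to 46.9% of the summed raw intensity of a library, with a mean over the 12 libraries of 44.2%, from 17.9% of the sets. A high share is built into the choice of bright sets. The share was 43.7% and 46.0% in libraries 1 and 2 of 0 h, 45.7% and 45.0% at 0.5 h, and 46.9% and 44.5% at 2 h. It was 41.8% and 42.8% at 6 h, 43.7% and 45.4% at 24 h, and 41.1% and 44.1% at 48 h. The 6 h libraries lay below both 0 h libraries, and the libraries of the other times overlapped the 0 h range or had 1 library inside it; the share was not tested. The means were 44.9% ± 1.65 (SD, n = 2) at 0 h and 42.6% ± 2.11 at 48 h, and the 2 pairs of libraries overlapped. The 6 members with ceiling spots alone held 27.6% to 34.6%, and R38, the member with the largest median share, held 6.09% (4.99% to 9.23% over arrays). When all 12 sets with a spot above 60000 were left out of both sums, the other 34 members held 27.5% to 35.6% of the rest.

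**Figure D2:**
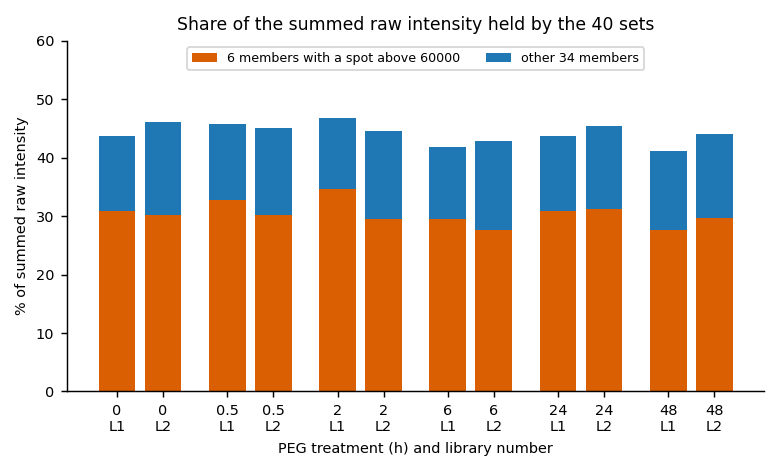
Share of the summed raw intensity of all spots (%, mean of 2 hybridizations) held by the 40 sets in each of the 12 libraries, with L1 and L2 for libraries 1 and 2. The lower part of a bar is the 6 members with a spot above 60000 and the upper part the other 34; bars end between 41.1% and 46.9%.

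How steady the members look against 0 h depended on how the arrays were scaled. After quantile normalization the median change of the 40 members was -0.03 at 0.5 h, 0.01 at 2 h, -0.03 at 6 h, -0.07 at 24 h and -0.10 at 48 h on the log2 scale. Cyclic loess gave medians from -0.05 to 0.03. With each array scaled to its median spot, the medians were -0.23, -0.61, -0.05, -0.23 and -0.32 at the 5 times, and 39 of the 40 members had a 2 h mean below 0 h. In that setting the 2 libraries of 2 h had member medians of -0.75 and -0.47. With no scaling the member median was -0.24 at 2 h and 0.12 at 48 h, while the median of all sets was 0.30 and 0.38, so the members lay below the bulk of the array at those times in both settings. The change of all sets under median scaling was between -0.07 and 0.03. Quantile normalization gives every array the same distribution, so a median near 0 is partly built in for the brightest sets. A lower level of the bright sets at 2 h and a higher level of the dimmer range cannot be told apart from these values. These differences were used by the choice of members and carry no test.

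**Figure D3:**
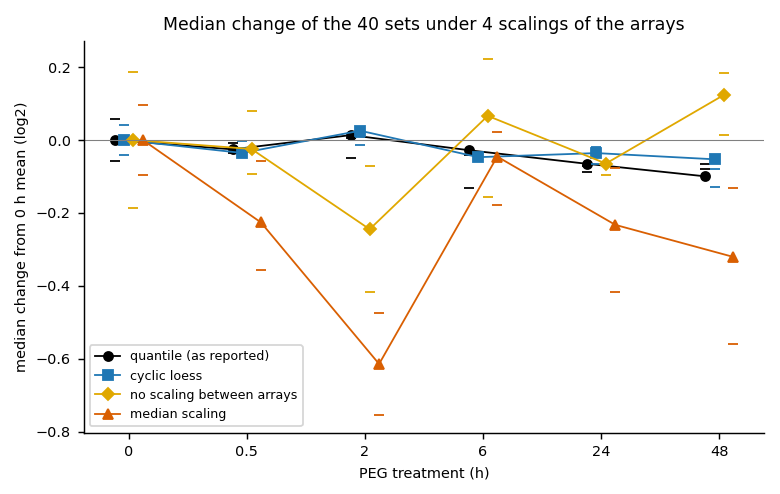
Median over the 40 sets of the change from the 0 h mean (log2, vertical axis) at each time (hours of PEG, horizontal axis) under 4 scalings of the arrays; symbols are the medians of the time means and dashes those of the 2 libraries. The symbols of quantile normalization and cyclic loess stay within 0.10 of 0, and the symbol of median scaling reaches -0.61 at 2 h, with its libraries at -0.75 and -0.47.

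Within the members the changes against 0 h were mostly small after quantile normalization, with a median size of 0.16 against 0.17 for all sets. At 1 time or more, 7 members differed from 0 h by over 0.5 and 2 by over 1: R218, which was 1.04 above at 2 h, and R277, which was 1.02 below at 2 h. A score near 0 therefore says that the mean over the PEG times was close to 0 h, and for these 2 sets the level at 2 h was not.

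The test that the choice of members did not use compared the 5 PEG times with each other, by a limma F test over all sets on 12 libraries. Of the 40 members 1 passed, R108 (adjusted p = 0.0479), where 0.893% of all sets passed (2 sets). At an unadjusted p under 0.05 there were 8 members and 32 sets. R108 had 9.78 and 9.67 in libraries 1 and 2 of 0.5 h, 8.79 and 8.85 at 2 h, and 9.83 and 9.77 at 6 h. It had 9.65 and 9.57 at 24 h and 9.38 and 9.27 at 48 h. The 2 h libraries were both below every other PEG library, and the 48 h libraries came next. The 5 PEG means spanned 0.98 on the log2 scale, a fold of 1.97. The 2 h mean was the lowest and the 6 h mean the highest under quantile normalization, cyclic loess, median scaling and no scaling alike, with spans of 0.78 to 1.12. By the F test on the first hybridizations alone the adjusted p of R108 was 0.00526, and on the second alone 0.374. The call rested on every PEG library: without any 1 of the 10 PEG libraries the adjusted p was 0.0701 to 0.189, while without either 0 h library it was 0.0315, and with no scaling it was 0.591 (0.00357 to 0.591 over all alternatives).

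The library numbers pair the samples across times, by the check given with the processing, and the fit with the replicate block called more members. It called 9 of the 40 members, where 18.3% of all sets (41 sets) passed, so the share among the members was close to that of the array. R108 is among the 9 (adjusted p = 0.00357). R218 had the widest span of all members. Its library 1 values were 9.75, 11.18, 10.16, 9.95 and 10.01 at 0.5, 2, 6, 24 and 48 h, and its library 2 values were 11.19, 12.64, 11.78, 11.51 and 11.46. Both libraries were highest at 2 h and lowest at 0.5 h. The means spanned 1.44, a fold of 2.71, with an adjusted p of 0.000333 with the block and of 0.997 without it, since the libraries of a time point were over 1 apart on the log2 scale.

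R277 resembled R108 in time course, with 10.23 and 10.30 at 0.5 h, 8.83 and 9.37 at 2 h, 9.99 and 10.51 at 6 h, 10.05 and 10.07 at 24 h, and 9.63 and 10.05 at 48 h. Its 2 h libraries were both below all other PEG libraries, and the means spanned 1.16 (adjusted p = 0.00357 with the block, 0.128 without). R241 had 12.14 and 12.10 at 0.5 h and 10.82 and 11.38 at 2 h, and its means spanned 1.01 (adjusted p = 0.015 with the block, 0.18 without). One of its 48 h libraries, at 11.12, lay between the 2 h libraries. After quantile normalization R48 took the opposite course at 2 h, with 14.04 and 14.92 at 0.5 h, 14.95 and 15.67 at 2 h, 14.35 and 14.83 at 6 h, 14.71 and 15.34 at 24 h, and 15.58 and 15.79 at 48 h. Its means spanned 1.20 (adjusted p = 0.00622 with the block, 0.339 without). At 48 h 6 of its 16 spots were at the ceiling, while at 2 h 3 spots were above 60000 and 0 at the ceiling. The span is therefore that of the recorded values, and it was 1.15 to 1.39 over the scalings. The rise of R48 at 2 h depended on the scaling. With median scaling its 2 h mean was 14.79, against 14.34 at 0.5 h and 14.78 at 6 h. It then lay below the means of 0 h (15.09) and 24 h (14.97). For R277, R241, R218 and R48 the lowest PEG time was the same under the 4 scalings named above.

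The other 4 members past the test with the block were R278, R260, R273 and R57, of which some fall outside the naming rule and were named after their values were seen. The first 3 of them were highest at 2 h and lowest at 6 h. R260 had 11.00 and 11.07 at 0.5 h, 11.37 and 11.60 at 2 h, 10.64 and 10.87 at 6 h, 10.82 and 10.76 at 24 h, and 11.03 and 10.91 at 48 h. Its 2 h libraries were both above all other PEG libraries, and its means spanned 0.73 (limma, adjusted p = 0.0146). R273 had 10.83 and 11.39 at 2 h and 10.08 and 10.50 at 6 h, with a span of 0.82. R278 had 12.20 and 11.78 at 2 h and 11.13 and 11.27 at 6 h, with a span of 0.79. R57 was lowest at 48 h, with 9.97 and 10.12, against 10.34 and 10.60 at 0.5 h where it was highest. The courses of these 4 members are those after quantile normalization, and their courses under the other scalings are not given here. The median change of all members at 2 h was 0.01 after quantile normalization and -0.61 with median scaling, so peaks at 2 h may depend on the scaling.

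**Figure D4:**
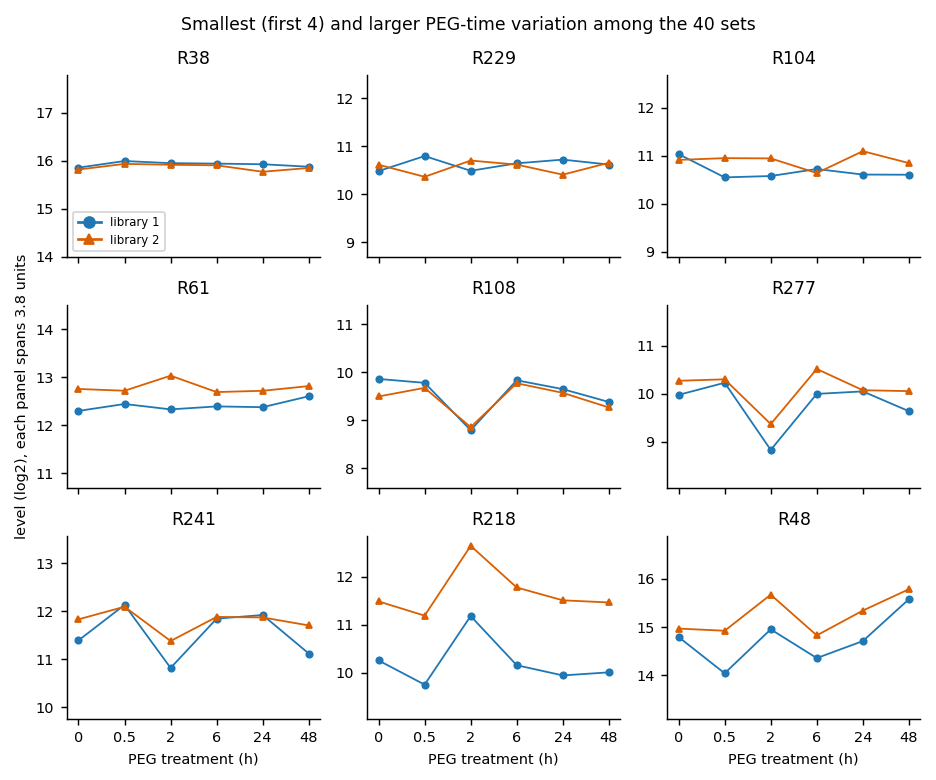
Level (log2, vertical axis) against time of PEG treatment (hours, equally spaced) for the 4 members with the smallest SD of the PEG means (R38, R229, R104 and R61), for R108 and for the 4 with the largest SD; circles are library 1 and triangles library 2, and all panels span the same number of log2 units. R108 and R277 dip at 2 h in both libraries, and R218 peaks at 2 h in both with library 2 higher throughout.

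Over the 40 members after quantile normalization, 2 h was the highest PEG time for 13 and the lowest for 10, and 6 h was the lowest for 11. Together 57.5% of the members had an extreme at 2 h, against 52.2% of all sets. Both libraries named the same highest time for 19 members and the same lowest time for 13. Both extremes matched in 7 members (17.5%), against 14.3% of all sets. The time of an extreme can depend on the scaling. R23 and R107 were highest at 2 h here but lowest at 2 h with median scaling, while R218 was highest at 2 h in both.

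At the other end, R229 had the smallest SD of the members over its 5 PEG means, 0.03. Its libraries had 10.48 and 10.62 at 0 h, 10.80 and 10.36 at 0.5 h, 10.49 and 10.70 at 2 h, 10.64 and 10.62 at 6 h, 10.72 and 10.41 at 24 h, and 10.62 and 10.66 at 48 h. Neither library was always the higher, and the PEG means spanned 0.07, less than the libraries of 0.5, 2 and 24 h differed from each other and more than those of 6 and 48 h did. The 0.5 h mean of R229 includes the second array of library 2 at 9.94, against 10.72 to 10.87 on the others. Its small SD depends on that array, and its place among the members without it was not computed. R104 and R61 had SDs of 0.06 and 0.08 and spans of 0.17 each. R38 had an SD of 0.05, with 41 of its 96 spots over the 24 arrays at the ceiling. These small spans belong to the scaling used: they were 0.50, 0.52 and 0.59 for R229, R104 and R61 with median scaling, and 0.43, 0.40 and 0.60 with none.

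The late times (24 and 48 h) were set against the early ones (0.5, 2 and 6 h), again without 0 h. By limma 0 of the 40 members passed, where 0.893% of all sets passed (2 sets). At an unadjusted p under 0.05 there were 5 members and 25 sets, members included. For R229 the difference was -0.001 with a 95% interval from -0.25 to 0.25. For R104 it was 0.06 (-0.26 to 0.37) and for R61 0.03 (-0.37 to 0.42). The half-width of the interval had its highest value, 1.33, for R218, so a change of up to that size would not have been resolved there without the block. With the replicate block 5 members passed, where 12.1% of all sets passed. Of the 5, 1 was higher, where 7.14% of all sets were, and 4 were lower, where 4.91% of all sets were. R48 was higher late, by 0.56 (95% interval 0.31 to 0.81; adjusted p = 0.00822), but 9 of its 16 spots at 48 h and 3 at 2 h were above 60000, so the size and the interval are those of the recorded values and do not measure its full change. R218 was lower late, by -0.38 (-0.55 to -0.22; adjusted p = 0.00822), and R28 had -0.40 (-0.65 to -0.14; adjusted p = 0.0492). The means of R218 were 10.47, 11.91 and 10.97 at 0.5, 2 and 6 h, and 10.73 and 10.74 at 24 and 48 h. Its difference thus came largely from the 2 h peak in the early mean, and both late means were above that of 0.5 h.

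The libraries of different number differed in many members, among them 5 of the 9 that passed the test among PEG times with the block. With 17 of the 40 members past the library test, this overlap says little about the 9, and it was not counted over all sets. Library 2 minus library 1, with time in the fit, passed in 17 of the 40 members by limma, where 36.2% of all sets (81 sets) passed. Of the 17, 12 were higher in library 2, where 21% of all sets were, and 5 were lower, where 15.2% of all sets were. The median size of the difference was 0.24 for the members and 0.15 for all sets. R218 was 1.46 ± 0.07 (SE) higher in library 2, a fold of 2.75 (adjusted p = 3.65e-07), higher at 6 of 6 times and by 1.23 to 1.62 at each. R29 was 0.77 ± 0.10 (SE) higher (adjusted p = 0.000253), also at 6 of 6 times. R23 was lower by -0.63 ± 0.09 (SE; adjusted p = 0.000544) at 6 of 6 times. What a shared library number stands for is not stated in the labels.

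R107 was lower in library 2 by -0.47 ± 0.12 (SE; adjusted p = 0.0121) after quantile normalization. It had -0.02 with no scaling and 0.08 with median scaling, so its direction is not settled. The split of the members called was 12 higher and 5 lower as reported, 12 and 2 with no scaling, 19 and 2 with median scaling, and 11 and 8 with cyclic loess. With no scaling the median library difference of all sets was itself -0.15. R218 and R29 were higher in library 2 in all 23 alternatives run for each.

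**Figure D5:**
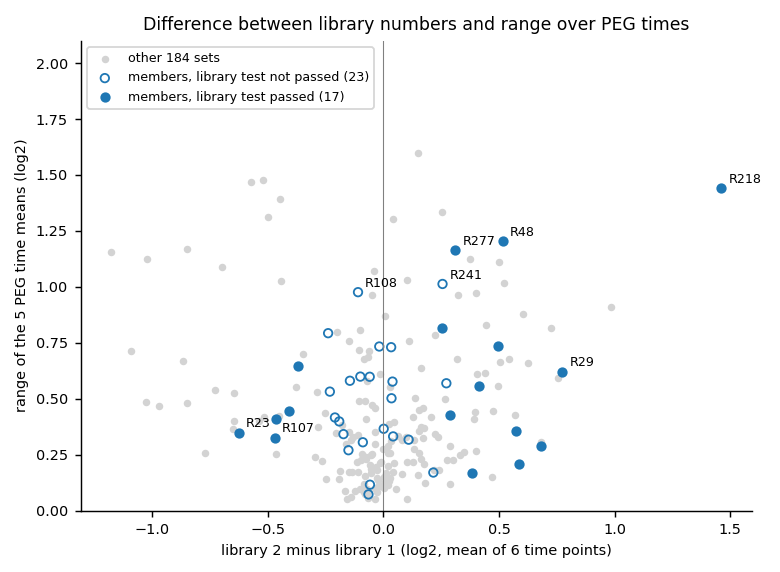
Range of the 5 PEG time means (log2, vertical axis) against the mean difference of library 2 minus library 1 over the 6 times (log2, horizontal axis) for the 40 members (blue) and the other sets (grey). Filled circles are the 17 members past the library test; R218 stands apart at 1.46 and 1.44.

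The variation of each member over the 20 PEG arrays was divided into time, library number, their combination and hybridization, which hold 4, 1, 4 and 10 of the 19 degrees of freedom (21.1%, 5.26%, 21.1% and 52.6%). The median share of the sum of squares was 32.7% for time, 18.0% for library number, 10.3% for their combination and 23.4% for hybridization. For all sets the medians were 26.2%, 14.1%, 11.0% and 31.6%. R218 had 30.2% in time, 68.6% in library number and 0.153% in their combination, so its 2 h peak had nearly the same size in both libraries. R108 had 78.0% in time and 0.541% in library number. R229 had 1.34% in time and 70.7% in hybridization. Library number took more than time in 15 of the 40 members, or 37.5%, against 34.4% of all sets.

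Hybridizations of a library differed by a median SD of 0.17 in the members, and the 4 spots of a set by 0.18. R36 and R283 had the largest spread between their spots, with median SDs of 0.31 and 0.30. R23 had the largest spread between hybridizations, a median SD of 0.48. At 0, 0.5, 2 and 6 h the first hybridization of its library 2 gave 10.97, 10.75, 10.61 and 10.16, and the second gave 11.76, 11.66, 11.80 and 11.51. With the second hybridizations alone its library difference was -0.18 (adjusted p = 0.161), so the value of R23 above came largely from the first ones.

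The members were not the steadiest sets of the array. The median SD over the PEG means was 0.20 for the members and 0.14 for all sets. It was 0.09 for the dimmer sets whose scores were also in the middle range, and 0.34 for the 35 sets that were as bright at 0 h but had been dropped for their scores. The offset of 50 narrows differences among dim sets, and all 4 figures are descriptions of sets chosen in part by their time means. Of the 40 members, 20 had PEG means that spanned over 0.5 and 4 over 1; of the 35 bright dropped sets, 26 and 10 did.

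The members were not spread evenly over the array. Each array has 4 sub-grids of 14 rows, with 4 sets in a row, and 11, 10, 7 and 12 members lay in the sub-grids. Rows 2 to 4 hold 48 sets, of which 26 were members and 18 were among the 35 bright dropped sets. The other 11 rows hold 176 sets with 14 members. By code, 26 of the 43 sets from R19 to R61 were members and 15 more were bright but dropped. Row and code number run together on this design, so position and the order of the codes cannot be told apart.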

How the data were processed

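Each deposited scanner file covers 1 array and lists, for every spot, a linear intensity and a background value. Per the file headers a circle of set size was read, and no correction for crosstalk or background had been made. The deposited series table equals the intensity less the background, checked spot by spot (largest difference 9e-06). Earlier wet and scanner steps beyond the labels are not described here. Background was 0 for all but 83 spots, so detection was not judged.

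The deposited intensities were converted to log2(intensity + 50), quantile normalized and averaged over 4 spots and 2 hybridizations. limma 3.58.1 in R 4.3.3 fitted 12 libraries with time as a factor (6 residual degrees of freedom). P-values are two-sided and Benjamini-Hochberg adjusted over all sets, with a threshold of 0.05; code R105 stands at 2 places and was kept as 2 sets. The F test, with and without the replicate block, was also run on simulated data with changes added at 2 h only. The outcome is not given here, so that run does not vouch for the fits reported. The members, the naming rule and the tests were chosen with earlier results of these data known. Named by that rule are the 5 brightest at 0 h, those with a spot above 60000 on all 4 arrays of a time, the 4 steadiest and 4 least steady over PEG times, sets at the limits, the 4 smallest p of the F test, up to 2 higher and 2 lower past each other test, and the 2 with the most discordant spots.

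The library numbers pair samples by the data: the difference between libraries 2 and 1 over all sets correlated in all 15 pairs of times (0.492 to 0.766). The block fit has 5 residual degrees of freedom. No 2 arrays were alike beyond r = 0.995 across sets.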

Additional observations from a re-analysis of the deposited data

Results flagged for a closer look

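Among the 4 arrays of each time point, 120 groups of values (19 named members and the members' share of signal at 6 times) were searched for an array far from the others, and 7 stood out, where chance, at about 1 group in 20, gives 6. Arrays of a time are 2 libraries with 2 hybridizations each. All values are log2 levels.

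At 2 h the first hybridization of library 2 was low in R40 (14.72 against 15.79 to 15.84) and in R36 (14.84 against 15.51 to 15.64), both sets near the ceiling on other arrays. R19 was low at 24 h on the second array of library 1, at 15.22 against 15.54 to 15.61. R229 was low at 0.5 h on the second array of library 2, at 9.94 against 10.72 to 10.87. R108 was high at 0 h on the second array of library 1, at 10.19 against 9.44 to 9.55. In R23 the first hybridization of library 2 was low at 0 h (10.97 against 11.69 to 11.76) and at 0.5 h (10.75 against 11.66 to 11.81).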

How the results depend on the processing

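The count of members that differed among the PEG times was 1 as reported and 9 with the replicate block. It was 0 with normexp, an offset of 16, no scaling, median scaling, cyclic loess, the median of the 4 spots, second hybridizations only, a trend in the moderation and the 30 brightest sets, and 0 to 1 when 1 library was left out (limma; 3 to 9 members at an unadjusted p under 0.05 over the background, offset and scaling settings). Late against early times gave 0 members except with the replicate block (5). The library difference was called in 13 to 21 members over 26 alternatives, against 17. The library difference of R107 turned to 0.0836 with median scaling. The members' share of signal was 44.2%, 44.0% to 44.5% with 1 library left out, and 31.2% without sets that had a spot above 60000. The rule chose 36 of the 40 members again with normexp or an offset of 16, 27 with no scaling or median scaling, and 26 to 38 with 1 library left out, the 26 without library 2 of 0 h. With 1 library left out, the lone library of that time is assumed to vary like the others. The number of libraries and the ceiling limit the precision.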
